A study of Mus musculus with 24 samples.

Results

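Liver sinusoidal endothelial identity was followed through 10 genes chosen by symbol: Stab1, Stab2, Lyve1, Clec4g, Oit3, Kdr, Flt4, Gata4, Dnase1l3 and Mrc1. They are 10 of the 56205 gene rows of the mouse count table, and all 10 passed the filter on low counts (at least 1 count in at least 12 libraries), as did 17913 genes in total. Whole-liver RNA came from C57BL/6J mice fed for 20 weeks either a high-fat diet (palm oil, fructose and cholesterol) or its matched control diet. The animals started the diets at 8 to 10 weeks of age, and the design gives 6 mice per diet and sex. Poly(A) RNA was sequenced in 12 libraries per diet, numbered replicate 1 to 12 within each diet, with 14468418 to 22112552 counts per library. Both diets used the same strain.

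Liver sinusoidal endothelial cells line the hepatic capillaries without a continuous basement membrane, and their open fenestrae let plasma reach the hepatocytes. They are among the body's most active scavenger cells and clear hyaluronan, collagen fragments and modified proteins through stabilins, mannose receptor and C-type lectins. GATA4 is a transcription factor required for this specialised state, VEGF receptors help to maintain it, and its replacement by a continuous vessel phenotype in chronic liver disease is called capillarization. In whole liver, fewer sinusoidal cells and less RNA per cell cannot be told apart.

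Start-site sequence is shown for 4 of the genes. These include Stab2, which passed the thresholds for the diet, and Stab1, its close relative, which did not. The others, Clec4g and Kdr, did not pass either and had the opposite sign to Stab2 with TMM scaling. The contrast between these genes was not tested. Each run covers 250 bases before to 50 bases after the RefSeq start site in GRCm38.p6, read 5′ to 3′ on the strand of the gene, which is the minus strand for all 4. Stab2 is from chr10:87007893-87008192, Stab1 from chr14:31168592-31168891, Clec4g from chr8:3720602-3720901 and Kdr from chr5:75978406-75978705. Capitals mark matches on either strand to GATA words (AGATAA or the variants TGATAA and also AGATAG and likewise TGATAG), ETS words (CGGAAG or the variant AGGAAG) and a MAF word (TGCTGA), named for transcription factor families active in endothelium.
Stab2: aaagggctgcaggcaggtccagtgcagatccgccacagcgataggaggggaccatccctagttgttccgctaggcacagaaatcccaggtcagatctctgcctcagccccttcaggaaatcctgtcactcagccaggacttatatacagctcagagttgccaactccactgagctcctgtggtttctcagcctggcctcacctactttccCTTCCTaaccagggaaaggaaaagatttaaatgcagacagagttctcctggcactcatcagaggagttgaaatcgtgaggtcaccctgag
Stab1: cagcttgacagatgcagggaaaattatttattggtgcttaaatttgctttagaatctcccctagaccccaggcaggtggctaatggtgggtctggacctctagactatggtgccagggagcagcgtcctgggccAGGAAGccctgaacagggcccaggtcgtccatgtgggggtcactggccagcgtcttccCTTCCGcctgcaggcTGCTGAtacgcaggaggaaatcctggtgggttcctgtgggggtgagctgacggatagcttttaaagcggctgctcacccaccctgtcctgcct
Clec4g: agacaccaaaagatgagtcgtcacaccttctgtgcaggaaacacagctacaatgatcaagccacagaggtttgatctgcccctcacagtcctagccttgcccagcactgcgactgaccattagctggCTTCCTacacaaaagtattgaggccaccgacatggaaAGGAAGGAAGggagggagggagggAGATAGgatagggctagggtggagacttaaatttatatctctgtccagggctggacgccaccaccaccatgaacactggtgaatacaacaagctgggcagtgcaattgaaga
Kdr: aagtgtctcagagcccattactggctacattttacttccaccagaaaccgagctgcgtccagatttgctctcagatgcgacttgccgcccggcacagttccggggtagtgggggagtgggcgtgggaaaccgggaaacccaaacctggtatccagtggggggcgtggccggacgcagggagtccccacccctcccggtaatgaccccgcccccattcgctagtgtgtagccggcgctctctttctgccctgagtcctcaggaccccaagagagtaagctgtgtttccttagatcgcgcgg

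RefSeq promoters were matched for 6 of the 10 genes, namely these 4, Flt4 and Mrc1, and not for Lyve1, Oit3, Gata4 and Dnase1l3. A GATA word was present in 1 of the 6 (Clec4g, first base at position -62 from the start site) and in 29.6% of all 32544 promoters of that length. ETS words were present in 4 of the 6 (Stab1, Stab2, Clec4g and Mrc1) and in 46.3% of all promoters. The Clec4g window held 3 of them, of which those at -86 and -82 overlap. The MAF word was present in 1 of the 6 (Stab1, at -43) and in 19.5% of all promoters. Neither the Kdr nor the Flt4 window held any of these words, and Stab2, which rose, held 1 ETS word at -40. These matches describe letters only.

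All 10 genes were detected in each of the 24 libraries, the lowest value being 33 counts of Lyve1 in a control library. Levels are given in CPM (counts divided by library size after TMM scaling), and between genes as CPM per kilobase of exon. Clec4g, a C-type lectin of sinusoidal endothelium, had the highest level per kilobase on the control diet, 22.4 ± 7.49 CPM per kb (SD, n = 12). Oit3, a zona pellucida-domain protein enriched in these cells, followed at 10.9 ± 3.30. The gap between these 2 genes was the only one between neighbours that exceeded the larger of their SDs. From Oit3 down, the order Dnase1l3 (8.11 ± 1.83), Mrc1 (6.91 ± 2.49), Stab1 (6.74 ± 1.42), Stab2 (5.70 ± 1.33), Kdr (5.17 ± 0.904), Gata4 (5.12 ± 0.770), Lyve1 (4.40 ± 2.42) and Flt4 (3.83 ± 1.13) had neighbours closer than their spread. On the high-fat diet Stab2 stood 3rd instead of 6th at 8.50 ± 2.98 CPM per kb, Dnase1l3 6th instead of 3rd at 6.45 ± 1.43, and Kdr 10th instead of 7th at 4.33 ± 0.684.

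Summed over the 10 genes, the level was 256 to 533 CPM on the control diet (median 407) and 264 to 510 CPM on the high-fat diet (median 405). The summed level thus covered a similar range on both diets. Between the diets, 1 of the 10 genes, Stab2, passed the thresholds used here (adjusted p of at most 0.01 and absolute log2 fold change over 0.5), and it was higher on the high-fat diet. Of all 17913 genes tested, 13.2% passed as higher and 4.99% as lower. None of the 10 passed as lower by edgeR's quasi-likelihood test, by DESeq2 or by limma-voom. At an unadjusted p under 0.05, 3 were lower (Clec4g, Kdr and Dnase1l3) and 2 higher (Stab2 and Flt4) with each tool. The share of all genes at that unadjusted p is not given here. Log2 fold changes were above 0 for 6 of the 10 genes, with a median of 0.02 beside -0.03 over all genes.

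**Figure D1:**
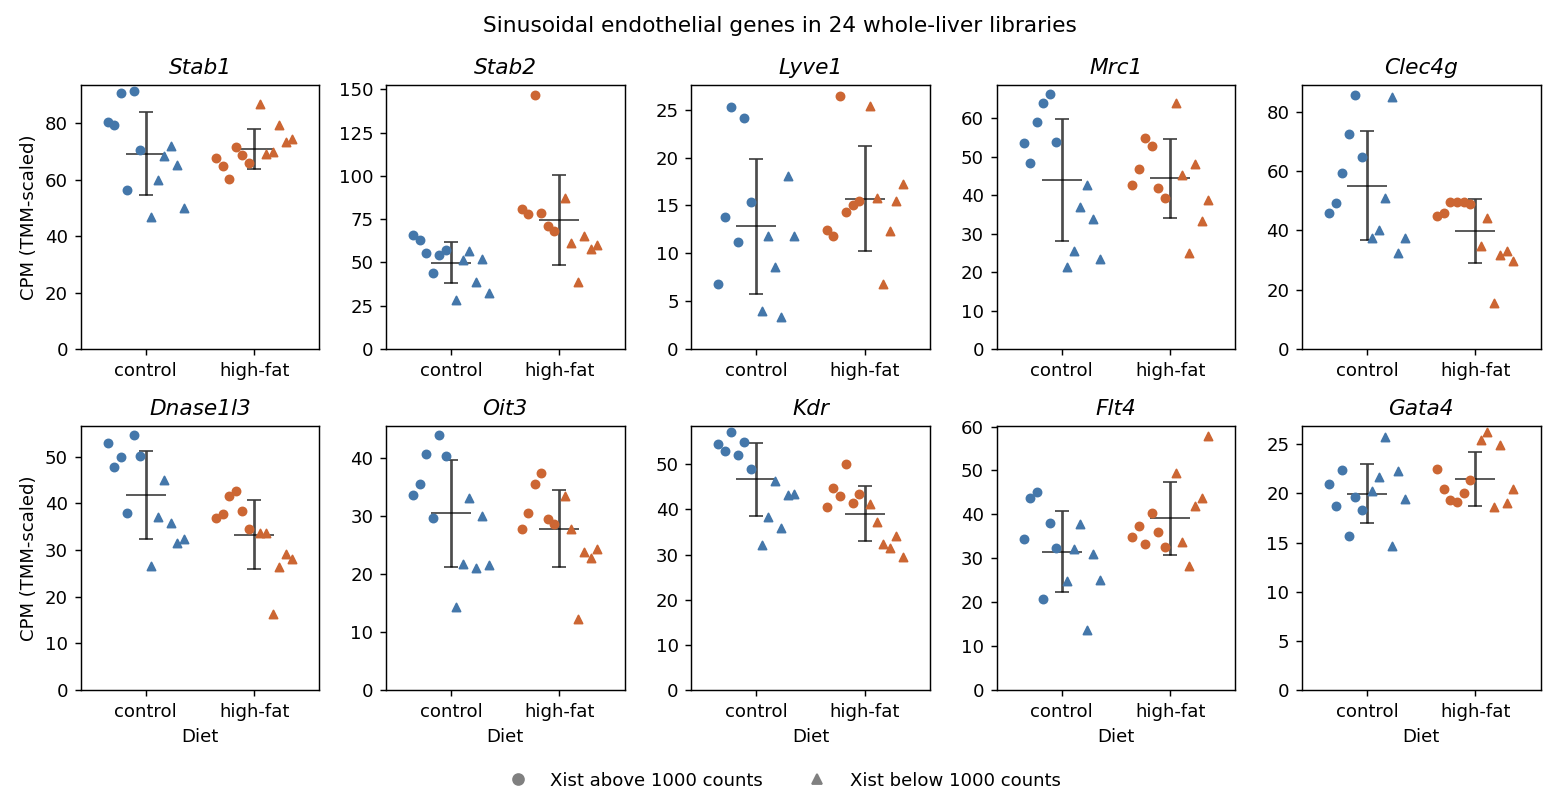
Level of each of the 10 sinusoidal genes in each library, in CPM with TMM scaling, for the control diet and the high-fat diet (12 libraries each). Each point is 1 library, a circle with Xist above 1000 counts or a triangle below, and the bars give the mean and SD. The Stab2 points of the high-fat diet reach 146.6 CPM and 7 of 12 lie above the highest control point, whereas the Stab1 points of the 2 diets share 1 range.

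Over all libraries the hyaluronan and scavenger receptors had different log2 fold changes, and the difference between these genes was not tested. Fitted only in libraries with Xist below 1000 counts, Stab2 (0.53), Stab1 (0.34), Mrc1 (0.49) and Lyve1 (0.70) were all above 0. Fitted only in libraries with Xist above 1000 counts, Stab2 stood at 0.63, Stab1 at -0.23, Mrc1 at -0.30 and Lyve1 at -0.0074. Stab2, the stabilin that clears hyaluronan from blood, ranged from 28.3 to 65.8 CPM on the control diet (median 53.3) and from 38.8 to 146.6 CPM on the high-fat diet (median 69.6). Of the high-fat libraries, 7 of 12 lay above the highest control and 11 of 12 above the control median, replicate 3 being the highest and replicate 9 the lowest. Stab2 rose 1.49-fold (log2 fold change 0.57 ± 0.16 SE, adjusted p = 0.00605, edgeR quasi-likelihood test with Benjamini-Hochberg adjustment, n = 12 per diet). Without replicate 3 of the high-fat diet the log2 fold change was 0.44 with an adjusted p of 0.0110, and the thresholds were not passed. They were also missed without high-fat replicate 7 (adjusted p = 0.0104) or without control replicates 4 (0.0104), 7 (0.0105) or 12 (0.0115), and met in the other 19 of 24 fits that left out 1 library.

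Stab1, the other stabilin, which is carried by sinusoidal endothelium and by some macrophages, ranged from 46.7 to 91.4 CPM on the control diet (median 69.5) and from 60.2 to 86.9 CPM on the high-fat diet (median 69.6). The high-fat values lay entirely within the control range. The log2 fold change was 0.04 ± 0.10 (adjusted p = 0.800 by edgeR). Mrc1, the macrophage mannose receptor, which sinusoidal endothelium uses to take up collagen chains, ranged from 21.2 to 66.3 CPM on the control diet (median 45.4) and from 24.9 to 64.0 CPM on the high-fat diet (median 43.8). The high-fat range again lay inside the control range, and the log2 fold change was 0.01 ± 0.18 (adjusted p = 0.970). Lyve1, a hyaluronan receptor shared with lymphatic vessels, was the least abundant of the 10 genes in CPM and, relative to its mean, the most variable on the control diet. It ranged from 3.36 to 25.2 CPM on the control diet (median 11.8) and from 6.81 to 26.4 CPM on the high-fat diet (median 15.2), with 10 of 12 high-fat libraries above the control median. Its log2 fold change of 0.28 ± 0.26 had an adjusted p of 0.410.

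Clec4g, which binds glycans of pathogens and of activated T cells, had the lowest log2 fold change of the 10 genes. It ranged from 32.2 to 85.5 CPM on the control diet (median 50.1) and from 15.5 to 49.7 CPM on the high-fat diet (median 44.5). No high-fat library exceeded the control median, 3 lay under the lowest control, and 6 control libraries exceeded the highest high-fat library. The log2 fold change was -0.47 ± 0.18 with an adjusted p of 0.0388 by edgeR, outside both thresholds.

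The receptors for VEGF were not called in either direction with TMM scaling. Kdr (VEGFR2), the main signalling receptor for VEGF-A, ranged from 32.2 to 57.2 CPM on the control diet (median 47.7) and from 29.5 to 50.03 CPM on the high-fat diet (median 40.9). Of the high-fat libraries 1 exceeded the control median and 2 lay under the lowest control. In the fit with diet as its only term, the log2 fold change of -0.26 ± 0.10 had an adjusted p of 0.0404 by edgeR, short of both thresholds. Flt4 (VEGFR3), the receptor for VEGF-C and VEGF-D, ranged from 13.6 to 45.1 CPM on the control diet (median 32.2) and from 28.2 to 58.0 CPM on the high-fat diet (median 36.6). For this gene 11 of 12 high-fat libraries exceeded the control median and 4 control libraries lay under the lowest high-fat library. The log2 fold change of 0.31 ± 0.15 had an adjusted p of 0.101. With library totals both values were above 0 (Kdr 0.0084 and Flt4 0.58), and the difference between the receptors was not tested.

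Gata4 encodes the transcription factor named above. Relative to its mean it varied least on the control diet. Gata4 ranged from 14.7 to 25.7 CPM on the control diet (median 19.9) and from 18.6 to 26.3 CPM on the high-fat diet (median 20.4), and the ranges largely overlapped. Its log2 fold change was 0.10 ± 0.08 (adjusted p = 0.344 by edgeR). Dnase1l3, a secreted nuclease that digests chromatin in the circulation, ranged from 26.5 to 54.7 CPM on the control diet (median 41.5) and from 16.3 to 42.7 CPM on the high-fat diet (median 34.1). The high-fat libraries reached the control median in 2 of 12 cases, and 6 control libraries lay above all of them. The log2 fold change was -0.33 ± 0.13 with an adjusted p of 0.0511. Oit3 ranged from 14.4 to 44.0 CPM on the control diet (median 31.6) and from 12.2 to 37.3 CPM on the high-fat diet (median 28.2), with broad overlap. Its log2 fold change was -0.13 ± 0.16 (adjusted p = 0.545).

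Some libraries stood apart in the level of most of these genes. High-fat replicate 9, with the highest TMM factor (1.34), was the lowest of its diet in 8 of the 10 genes. It also had the highest summed level of 8 monocyte-derived macrophage markers of any library (1170 CPM, against 282 CPM in the lowest high-fat library) and the lowest summed level of 8 hepatocyte markers (40041 CPM). Control replicate 7 was the lowest of its diet in 6 of the 10 genes, and its 16 pan-endothelial genes also had the lowest sum of any library (261 CPM). Control replicate 10 had the lowest TMM factor (0.679), and the interferon-responsive gene Bst2, listed among 7 dendritic cell markers, stood at 408 of their 412 CPM there. The other 6 markers summed to 3.46 CPM in that library, within the control range of 2.59 to 9.33 CPM. Without high-fat replicate 9 and control replicate 10, Stab2 kept its call (log2 fold change 0.61, adjusted p = 0.00285 by edgeR), whereas Clec4g moved to -0.32 with an adjusted p of 0.0942 and Kdr stayed at -0.26 (0.0336). Without control replicate 7, Stab2 lost its call (0.52, adjusted p = 0.0105), and Clec4g stood at -0.51 (0.0280) and Kdr at -0.30 (0.0144).

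The scaling of the libraries set where the zero lay. TMM gave 72.6% of all calls as higher (2372 higher and 894 lower genes), and scaling by library totals gave 94.4% (3827 and 226), with the median of all genes moving from -0.03 to 0.26. With library totals 2 of the 10 genes were called higher, Stab2 at 0.82 (adjusted p = 0.000239) and Flt4 at 0.58 (adjusted p = 0.00948), beside 21.4% of all genes called higher and 1.26% called lower, and none of the 10 was called lower. Under that scaling the log2 fold changes of Oit3 (0.11) and Kdr (0.01) turned positive. When the libraries were scaled instead so that 16 pan-endothelial genes were level, the median of all genes was -0.36. Whether these 16 genes track endothelial content was not tested. Relative to them, Kdr (-0.54, adjusted p = 0.000200), Dnase1l3 (-0.61, adjusted p = 0.000565) and Clec4g (-0.76, adjusted p = 0.00166) were called lower by edgeR, 3 of 10 beside 24.9% of all genes. None was called higher, beside 9.27% of all genes, and Stab2 stood at 0.27 (adjusted p = 0.0973). Stab1 (-0.26), Mrc1 (-0.26) and Gata4 (-0.22) had negative values under this scaling. Clec4g and Dnase1l3 were negative, and Stab2, Lyve1 and Flt4 positive, under all 3 scalings.

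**Figure D2:**
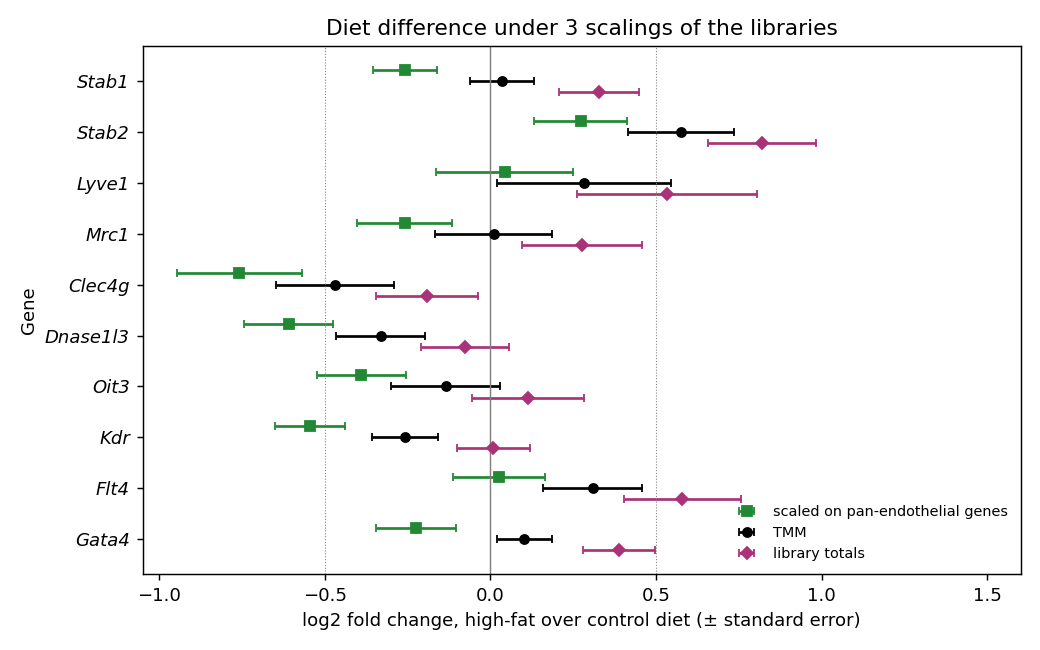
Log2 fold change of each of the 10 genes between the high-fat and the control diet under 3 scalings of the libraries (TMM, library totals, and 16 pan-endothelial genes set level), with bars of 1 SE and dotted lines at the fold threshold of 0.5. The 3 scalings shift all genes to one side or the other, and Stab2 stays the highest and Clec4g the lowest of the 10 in each.

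Ratios between the genes within a library do not depend on that choice. The ratios below were chosen after the values had been seen and are given as a description, per kilobase. Stab2 to Stab1 was 0.633 to 1.01 in control libraries (median 0.922) and 0.651 to 2.86 in high-fat libraries (median 1.20), with 8 of 12 high-fat libraries above the highest control. All 6 high-fat libraries of replicates 1 to 6 were among these (1.21 to 2.86, against 0.699 to 0.960 in their controls), and 2 of the 6 from replicates 7 to 12 (0.651 to 1.18, against 0.633 to 1.01). Stab2 to Kdr separated the diets further, from a control median of 1.16 to a high-fat median of 1.78, with 11 of 12 high-fat libraries above the highest control value of 1.38. Stab2 to Clec4g went from a median of 0.255 to 0.499, a median ratio 1.96 times as high. Flt4 to Kdr, the 2 VEGF receptors, went from a median of 0.771 to 0.956, and 8 high-fat libraries exceeded the highest control value of 0.916. Of these, 6 were replicates 7 to 12 (0.956 to 2.16, against 0.416 to 0.916 in their controls) and 2 were among replicates 1 to 6 (0.821 to 0.955, against 0.434 to 0.905).

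Set against the geometric mean of all 10 genes in the same library, Stab2 was higher on the high-fat diet by 0.51 on the log2 scale, and 11 of 12 high-fat libraries lay above all controls. Lyve1 was higher by 0.40, with 2 libraries above all controls, and Flt4 by 0.31, with 5. Kdr was lower, with a difference of -0.29 and 8 of 12 high-fat libraries under all controls. Because the reference is the mean of the same 10 genes, higher values of some bring lower values of others. Dnase1l3 differed by -0.38, with 6 libraries under all controls, and Clec4g by -0.50, with 4. Stab1 (0.02), Mrc1 (0.03) and Gata4 (0.07) differed least.

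**Figure D3:**
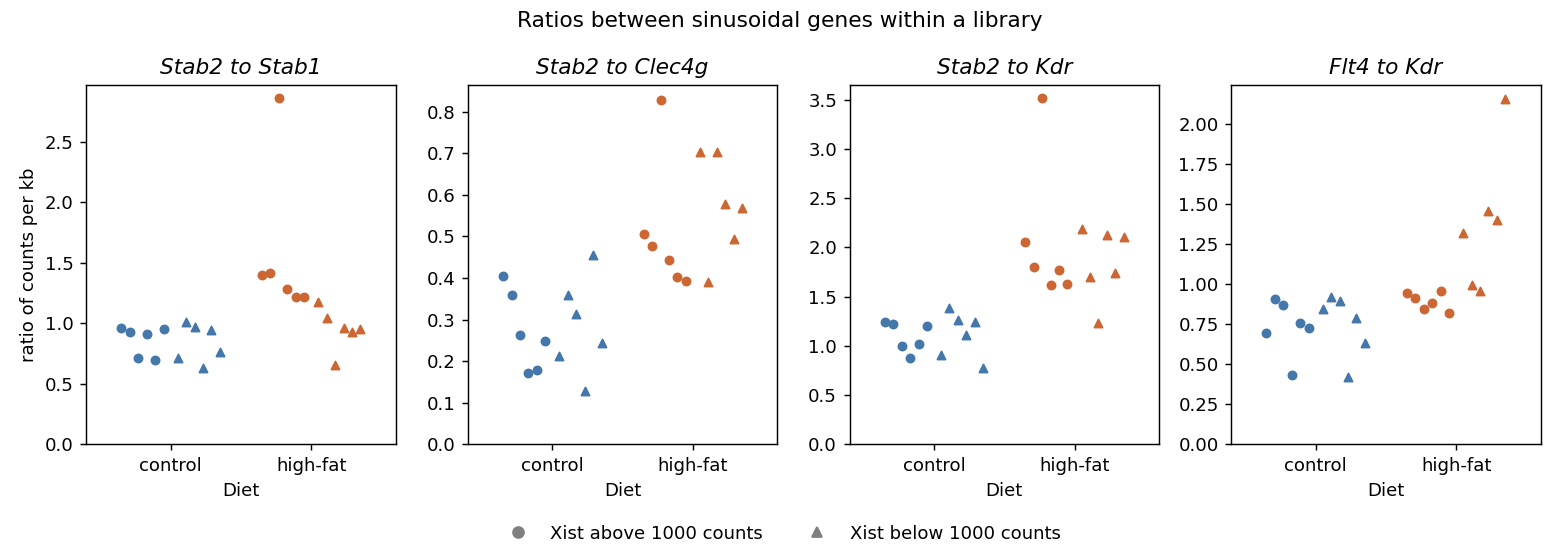
Ratios of sinusoidal genes within each library, per kilobase of exon, with 1 point per library, a circle with Xist above 1000 counts or a triangle below. Stab2 to Kdr lies above the highest control value of 1.38 in 11 of 12 high-fat libraries, and Stab2 to Stab1 reaches 2.86 in replicate 3.

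The libraries fell into 2 sets by Xist, a transcript of the inactive X chromosome. Replicates 1 to 6 of both diets held 2664 to 6285 Xist counts and 0 counts of the Y-linked gene Ddx3y, and replicates 7 to 12 held at most 3 Xist counts and 448 to 1016 Ddx3y counts. The labels do not give the sex of a library, so the sets are sets of libraries and not conditions. In neither set alone did any of the 10 genes pass the thresholds, beside 3.78% of all genes in the set with Xist and 22.3% in the set without. Stab2 was higher on the high-fat diet in both, by 0.63 with Xist (adjusted p = 0.0217 by edgeR) and by 0.53 without (adjusted p = 0.0461). With the set as a covariate over all 24 libraries, Kdr (-0.25, adjusted p = 0.00279 by edgeR) and Dnase1l3 (-0.33, 0.00811) passed the adjusted p threshold but not the fold threshold. In that fit Clec4g (-0.48, 0.0108) passed neither threshold and Stab2 (0.57, 0.00164) passed both.

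Stab1 and Mrc1 differed between the diets by different amounts in the 2 sets. With Xist, Stab1 ranged from 56.5 to 91.4 CPM on the control diet (median 80.0) and from 60.2 to 71.7 CPM on the high-fat diet (median 66.9). Without Xist, it ranged from 46.7 to 72.0 CPM (median 62.5) and from 69.2 to 86.9 CPM (median 73.9). The high-fat median was thus lower than that of the controls in the first set and higher in the second. The interaction of diet and set was -0.56 ± 0.16 on the log2 scale (adjusted p = 0.0257 by edgeR, n = 6 per diet and set).

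With Xist, Mrc1 ranged from 48.3 to 66.3 CPM on the control diet (median 56.3) and from 39.2 to 54.9 CPM on the high-fat diet (median 44.6). Without Xist, it ranged from 21.2 to 42.6 CPM (median 29.6) and from 24.9 to 64.0 CPM (median 41.9). On the control diet the 2 sets did not overlap for Mrc1, and on the high-fat diet they did. The share of all genes without such overlap is not given here. Its interaction was -0.78 ± 0.25 (adjusted p = 0.0474). These were 2 of 10 genes at an adjusted p of at most 0.05, beside 10.2% of all genes. With the pan-endothelial scaling neither held (Stab1 -0.04, adjusted p = 0.888, and Mrc1 -0.28, adjusted p = 0.348). When each library was left out in turn, the adjusted p was 0.00649 to 0.0563 for Stab1, over 0.05 only without high-fat replicates 7 or 10. For Mrc1 it was 0.0165 to 0.0986, and it stayed at most 0.05 in 7 of 24 fits, those without high-fat replicates 3, 9 or 11 or control replicates 2, 9, 10 or 11.

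On the control diet the set with Xist had the higher Mrc1 (0.91 ± 0.18, adjusted p = 0.000983 by edgeR), the only one of the 10 past both thresholds, beside 3.50% of all genes higher in that set. Kdr was 49.0 to 57.2 CPM with Xist and 32.2 to 46.4 CPM without, 2 ranges that did not overlap. It differed by 0.42 ± 0.09 (adjusted p = 0.00270 by edgeR), under the fold threshold. How often the ranges of all genes stayed apart is not given here. Oit3 differed by 0.66 (adjusted p = 0.0188), Dnase1l3 by 0.50 (0.0181) and Stab1 by 0.37 (0.0307). On the high-fat diet the set difference of Kdr was 0.35 (adjusted p = 0.0101), that of Dnase1l3 0.47 (0.0215) and that of Clec4g 0.61 (0.0479), while Mrc1 stood at 0.13 (0.700) and Stab1 at -0.18 (0.305).

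**Figure D4:**
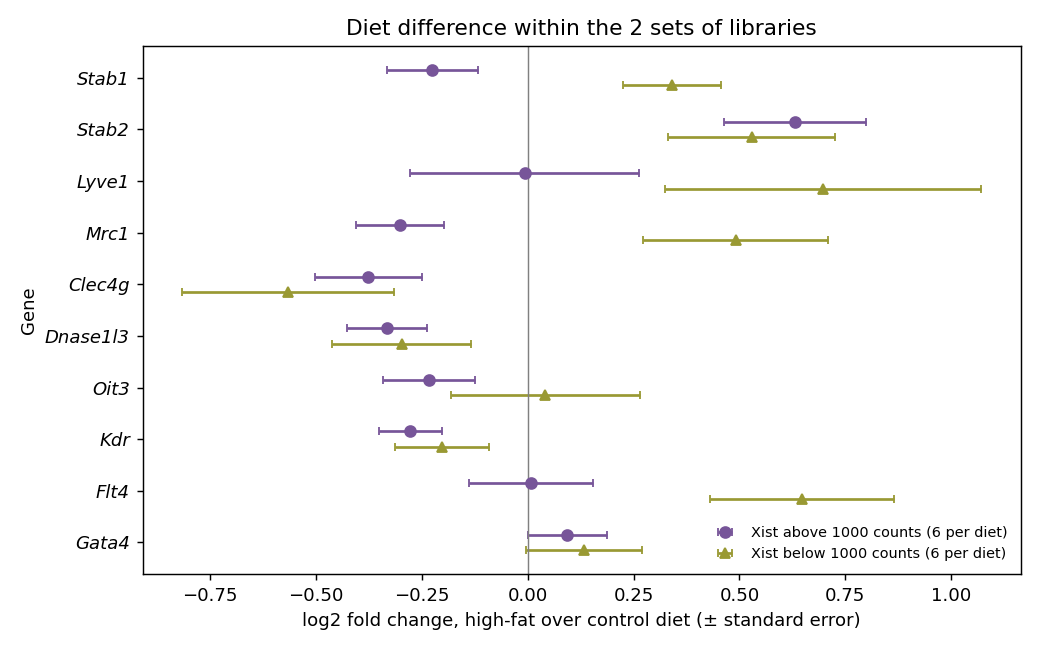
Log2 fold change between the high-fat and the control diet for each of the 10 genes, fitted in the 6 libraries per diet with Xist above 1000 counts and in the 6 per diet below it, with bars of 1 SE. Stab2 is positive and Clec4g, Kdr and Dnase1l3 negative in both sets, while Stab1 and Mrc1 lie on opposite sides of 0.

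Within diet and set, the 10 genes varied together from library to library. Correlations of their log2(CPM + 1) deviations from the mean of their diet and set, over the 24 libraries, were above 0 for 43 of the 45 pairs, with a median r of 0.46. The highest was between Oit3 and Dnase1l3 (0.86) and the lowest between Clec4g and Flt4 (-0.24). Oit3 followed the mean of the other 9 genes most closely (r = 0.95) and Clec4g least (0.30). Among 11127 genes with a mean of at least 50 counts, whose median r with the mean deviation of the 10 genes was 0.03, the 5 most alike were F8 (0.85), Ptprb (0.85), Cd300lg (0.84), Gpr182 (0.84) and Adgrf5 (0.80). F8 encodes coagulation factor VIII, and Ptprb an endothelial phosphatase. None of the 5 passed the thresholds for diet. The points share libraries, depth and scaling, and the mean of the 10 genes holds each gene's library effects.

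Other genes of sinusoidal endothelium were read from a list of 12. By edgeR none was called higher and 1 was called lower, Bmp2, a ligand by which these cells control hepatocyte iron sensing (24.8 ± 6.98 to 15.5 ± 4.18 CPM, log2 fold change -0.68, adjusted p = 0.00189). Its partner ligand Bmp6 stood at -0.70 (adjusted p = 0.0191) and Tfec, of the same list, at 0.64 (adjusted p = 0.0185), neither of them called. Of the 12 genes, 4 had positive values. The median of the list was -0.27, below that of the 10 genes. With the pan-endothelial scaling its median was -0.55 and 5 of 12 were called lower (Wnt2, Ehd3, Bmp2, Bmp6 and Plxnc1), beside a median of -0.36 and 24.9% called lower over all genes. Of 16 pan-endothelial genes 15 had positive values, with a median of 0.30 (all genes -0.03), and 3 rose, beside 13.2% of all genes: Emcn (0.62, adjusted p = 0.00600), Sox18 (0.62, 0.000431) and Ramp2 (0.61, 0.000411). Emcn was called in 17 of 24 fits with a library left out (0.53, adjusted p = 0.0117 without high-fat replicate 9), Sox18 and Ramp2 in all 24. Their summed level was 261 to 495 CPM on the control diet and 408 to 539 CPM on the high-fat diet.

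Among 8 other VEGF ligands and receptors, Vegfc, a ligand of Flt4, rose from 3.19 ± 0.327 to 4.997 ± 0.655 CPM (log2 fold change 0.65, adjusted p = 6.55e-06 by edgeR). Vegfa, the ligand of Kdr, fell from 127 ± 21.1 to 86.3 ± 21.0 CPM (log2 fold change -0.56, adjusted p = 0.000542). The other 6 genes of this list did not pass. Among 4 GATA factors and partners, the cofactor genes went opposite ways, Zfpm2 rising (0.69, adjusted p = 0.00541) and Zfpm1 falling (-0.66, adjusted p = 0.000124), and Gata6 and Gata2 did not pass. Zfpm2 was called in 19 of 24 fits with a library left out, Zfpm1 in all 24.

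Of 8 markers of large-vessel and continuous endothelium, all had positive values and 7 rose, beside 13.2% of all genes, with a list median of 1.47. Cd34, a surface sialomucin of continuous capillaries, rose from 1.62 ± 0.955 to 6.91 ± 6.83 CPM (log2 fold change 2.07, adjusted p = 0.000144 by edgeR), and Vwf, the platelet-binding protein of larger vessels, from 8.11 ± 2.64 to 15.1 ± 11.1 CPM (0.90, 0.00679). Without high-fat replicate 9 Cd34 stood at 1.62 (adjusted p = 0.000134), and it was called in all 24 fits with a library left out. Without high-fat replicate 3 Vwf stood at 0.58 (adjusted p = 0.0123), and it was called in 15 of 24 fits with a library left out. Plvap, the diaphragm protein of endothelial fenestrae and caveolae, rose from 70.5 ± 16.1 to 106.9 ± 19.0 CPM (0.60, 0.000428). Apln, Aplnr and Sele were at 0 counts in at least 1 library. The genes called in these and the following lists had the same direction with library totals.

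Markers of other liver cells were read beside the 13.2% of all genes called higher and 4.99% called lower. All 8 monocyte-derived macrophage markers rose, their sum going from 51.8 to 181 CPM on the control diet to 282 to 1170 CPM on the high-fat diet. Of 8 Kupffer cell markers, Cd5l (1.69) and Folr2 (0.87) rose and Cd163 fell (-2.51), and the sum was 291 to 522 CPM against 351 to 1008 CPM. Folr2 was called in 9 of 24 fits with a library left out. Stab1, Mrc1 and Lyve1 are also expressed by liver macrophages, and the part of these cells in their values was not tested. Of 5 lymphatic markers, 3 had negative values (Mmrn1 -0.82, Prox1 -0.51 and Ccl21a -0.16, none called) and the list median was -0.16. On the control diet Prox1 (141 CPM) and Reln (54.9 CPM, also on the stellate list) far exceeded Pdpn (0.147), Ccl21a (0.521) and Mmrn1 (0.362). Whether Prox1 and Reln came from lymphatic cells was not tested. Pdpn was called higher (3.27, adjusted p = 0.000661), with 10.8 CPM in high-fat replicate 9 beside a mean of 1.51, and stood at 2.10 (adjusted p = 0.00166) without that library. Pdpn, Ccl21a and Mmrn1 were at 0 counts in at least 1 library. Of 10 stellate cell markers 3 were called higher (Pdgfrb, Colec11 and Des, the last not without high-fat replicate 9, at 0.48). Of 7 dendritic cell markers 1 was called higher (Flt3), a share near that of all genes. Of 8 hepatocyte markers 6 fell and 1 rose (Cyp3a11), the sum going from 84882 to 131090 CPM on the control diet to 40041 to 91305 CPM on the high-fat diet. The part of these cells in the sinusoidal values was not tested.

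**Figure D5:**
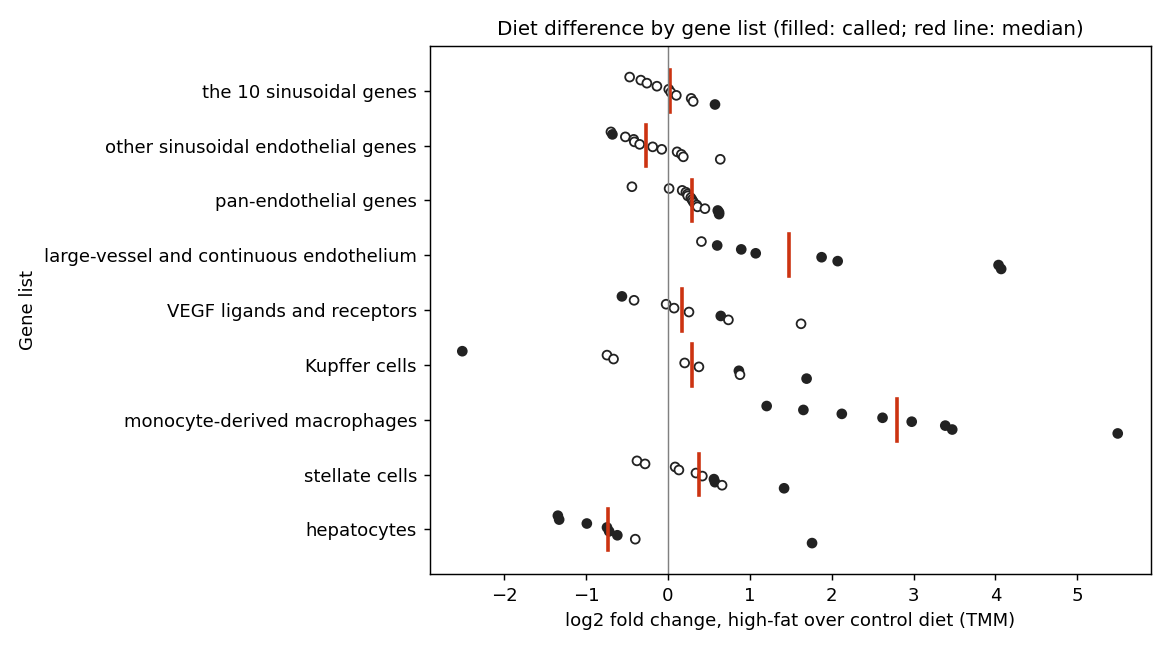
Log2 fold change between the high-fat and the control diet of every gene in the sinusoidal group and in 8 of the other gene lists, 1 point per gene, filled where the thresholds were passed, with a red line at the list median. The sinusoidal genes lie between -0.47 and 0.57 around a median of 0.02, while the large-vessel list has a median of 1.47 and the monocyte-derived macrophage list one of 2.80.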

How the data were processed

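Whole-liver RNA-Seq counts were read from 1 table of 24 mouse libraries. The table, as the authors deposited it, gives raw whole-number counts for each Ensembl ID. Their processing notes name bcl2fastq, STAR 2.7.3a and mm10. The supplemental methods describe the exon quantification pipeline, STAR and PISCES with an Ensembl human reference. The annotation and counting program for the mouse libraries are not given in the sources used here. Symbols and exon lengths came from GENCODE M21 (51745 of 56205 IDs matched; the other 4460 held 0.0723% of counts), so lengths may differ from those counted.

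The 17913 genes that had 1 count or more in 12 or more libraries were fitted with edgeR 4.0.16 in R 4.3.3 (TMM, quasi-likelihood test, no term besides diet, p-values adjusted over all of them by Benjamini-Hochberg). The standard error is the log2 fold change over the root of F. On simulated counts for the diet comparison, run on 17740 genes, 88.5% of 200 genes changed 2-fold were recovered and 1 unchanged gene was called. Depth was 14468418 to 22112552 counts per library. Replicates are separate libraries; no pair agreed within sampling noise (chi-square per degree of freedom at least 9.48). Nothing beyond the design text says that they are separate animals.

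The 10 genes and all lists were chosen with earlier results of these data known. Named genes were the 10, the called genes of each list and the 5 genes most alike. Some genes of the lists that were not called, such as Bmp6 and Tfec, are also named. Alternatives were DESeq2 1.42.0, limma 3.58.1 (voom), 3 other scalings, 3 filters, other thresholds, sva 3.50.0 surrogate variables, the set of libraries, a replicate block and leaving out each library. Fits of the interaction under other settings, and the fit without both outlying libraries, were added after seeing the data.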

Additional observations from a re-analysis of the deposited data

Results flagged for a closer look

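Among the 10 sinusoidal genes, the difference between diets itself differed between the 2 sets of libraries for Mrc1 and Stab1, by the interaction term of edgeR's quasi-likelihood fit. For Mrc1 the log2 fold change in libraries with Xist above 1000 counts minus that in libraries below was -0.78 (adjusted p = 0.0474), with -0.30 in the former and 0.49 in the latter. For Stab1 it was -0.56 (adjusted p = 0.0257), with -0.23 and 0.34. These were 2 of the 10 genes, beside 10.2% of all genes. With the pan-endothelial scaling neither held (Mrc1 -0.28, adjusted p = 0.348, and Stab1 -0.04, adjusted p = 0.888). With each library left out in turn, Mrc1 was over an adjusted p of 0.05 in 17 of 24 fits (0.0165 to 0.0986) and Stab1 in 2 of 24 (0.00649 to 0.0563). Without both high-fat replicate 9 and control replicate 10, the values were -1.01 (adjusted p = 0.00345) for Mrc1 and -0.63 (adjusted p = 0.0108) for Stab1.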

How the results depend on the processing

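The single call among the 10 genes, Stab2 higher, was also made by DESeq2, limma-voom, DESeq2's size factors, all 3 other filters, 1 or 2 surrogate variables and with the set as a covariate. The number called higher was 0 with a log2 fold change over 1 and with the replicate block. It was also 0 with the pan-endothelial scaling (beside 9.27% of all genes) and in each set of libraries alone. With library totals it was 2, beside 21.4% of all genes. With each library left out in turn it was 0 to 1 (Stab2 0.44 to 0.64). The number called lower was 2 (Clec4g and Kdr) when the threshold was an adjusted p of 0.05 and any fold. The share of all genes under that threshold is not given here. The number called lower was 3 with the pan-endothelial scaling, beside 24.9% of all genes, and 0 elsewhere. Directions reversed with library totals (Oit3 0.11, Kdr 0.0084), with the pan-endothelial scaling (Gata4 -0.22, Mrc1 -0.26, Stab1 -0.26), with Xist above 1000 counts only (Mrc1 -0.30, Lyve1 -0.0074, Stab1 -0.23) and below it only (Oit3 0.042). With libraries left out, Mrc1 ranged from -0.057 to 0.078 and Stab1 from -0.0071 to 0.078. The interaction held for 2 genes, beside 10.2% of all genes. It held for 3 with library totals (Flt4 added, -0.94, adjusted p = 0.0339). With the pan-endothelial scaling it held for 1 (Kdr 0.43, adjusted p = 0.0489, and not Stab1 or Mrc1), and for 0 to 2 with a library left out. Shares of all genes for the interaction under these other settings are not given here. The cause of these changes was not tested.

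Same-numbered libraries of the 2 diets did not deviate together throughout (correlations -0.08 to 0.30, under 0.1 for replicates 9, 10 and 12), so the numbers were not taken as pairing. With the replicate block Stab2 was 0.55 with an adjusted p of 0.0103. Depth limits Lyve1 most, at 33 counts in its lowest library.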
